A study of Mus musculus with 3 samples.

Results

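The 8 hepatic transcription factors Hnf4a, Prox1, Hlx, Onecut1, Onecut2, Cebpa, Cebpb and Xbp1 were followed while mouse embryonic stem (ES) cells of the line E14.1 were differentiated towards liver. The factors were taken by name, and every probe of the array that carries one of these names was kept, which gave 17 probes of the 41174 gene probes and 8 of the 27924 names on the array. Hnf4a, Prox1 and Onecut2 had 3 probes each, Onecut1, Cebpa and Cebpb had 2 each, and Hlx and Xbp1 had 1 each.

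The study asked how target genes of the forkhead factor Foxa2 are expressed along this differentiation, and hybridised total RNA of 3 time points to Cy3 one-colour Agilent arrays, 1 array per time point. Day 0 was undifferentiated ES cells on gelatin, kept with LIF at 1000 U/ml and BMP4 at 10 ng/ml. Day 5 was definitive endoderm on mouse collagen IV, in the same medium with activin A at 30 ng/ml in place of LIF and BMP4. Day 7 was early hepatic cells, for which BMP4 at 30 ng/ml and bFGF at 10 ng/ml were added to the activin A for the last 2 days. All 3 groups are cultures of 1 cell line, for which the labels name no sorting or genetic change, with 1 array each, so there was no replicate, no test and no SD between samples. Each comparison of days sets 1 array against 1 other. Because whole cultures were measured, fewer cells of a type and less RNA per cell cannot be told apart.

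The liver is specified in the ventral foregut endoderm, where forkhead and GATA factors act first, and where signals such as BMP and FGF start the hepatic programme. Hnf4a, a nuclear receptor, and the C/EBP bZIP factors then drive genes of secreted plasma proteins and metabolism. The homeodomain proteins Prox1, Onecut1 and Onecut2 act in the hepatoblasts that leave the endoderm to form the liver bud, Hlx acts in the mesenchyme around that bud, and Xbp1 equips secretory cells such as hepatocytes with endoplasmic reticulum.

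Signals are given as the log2 processed intensity of a probe minus the 75th percentile of its array, called the normalised log2 signal, so that 0 is the 75th percentile. That percentile was an intensity of 1564, 2051 and 2053 for days 0, 5 and 7. The share of gene spots well above background by the scanner software's mark was between 70.9% and 71.7%, and no gene spot was saturated. A gene or probe is called higher or lower when the brighter of the arrays compared detected it above background by that mark and the difference was 2-fold or more. A dim side took the array's lowest signal so marked, unless its own value was greater, and such a difference is written "at least N-fold". The normalised signal depends on the probe as well as on the transcript, so levels of different probes are not compared. Every probe of the 8 factors was printed once per array. Among array probes of like brightness that were printed repeatedly, the SD between spots lay between 0.064 and 0.463 (log2) at the brightness of the 17 probes, and it measures the hybridisation only. The median difference over the 21181 genes compared was -0.12 from day 0 to day 5, -0.19 from day 0 to day 7 and -0.06 from day 5 to day 7 (log2).

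Markers were checked against the labels of the 3 arrays. All 5 ES cell markers were called lower on day 5 and on day 7 than on day 0, and all 5 definitive endoderm markers were called higher on both days. Of 12 hepatoblast markers, 10 were higher on day 7 than on day 0 and 1, Trf, was lower. Of the same 12, 9 were already higher on day 5, the definitive endoderm array, and 5 were higher on day 7 than on day 5. Afp, the main plasma protein of fetal liver and yolk sac, had normalised log2 signals of -5.95, -5.29 and 3.83 on days 0, 5 and 7. Alb, the albumin gene of hepatocytes, was well above background on day 5 alone, at -6.07. Visceral and parietal endoderm are extraembryonic cell types, and visceral endoderm also expresses Hnf4a, Afp, Apob and Ttr. Of 18 markers of visceral and parietal endoderm, 16 were higher on day 7 than on day 0, as were 9 of 12 markers of septum and gut mesenchyme.

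Every probe of Hnf4a had its lowest signal on day 0 and its highest on day 7. Prox1 was higher on day 5 than on day 0 by 2 of its 3 probes, and Hlx by its 1 probe. Cebpb was lower on day 7 than on day 0, and no probe of Onecut2 or Xbp1 was called in any comparison. With 1 probe standing for each gene (the probe detected on more arrays than the others, or the brightest of those that tie), 3 of the 8 factors were called higher and 1 lower on day 5 than on day 0, against a background of 16.5% of genes higher and 16.2% lower. On day 7 against day 0, again 3 were higher and 1 was lower, against 16.2% and 19.2% of genes. With the median over the probes of each gene, 2 were higher and 2 lower on that day, as Prox1 was not called and Cebpa was called lower. On day 7 against day 5, Hnf4a was called higher and Hlx lower, against 5.99% and 8.44% of genes. In either direction the counts were 4, 4 and 2 of 8 factors, beside 32.6%, 35.4% and 14.4% of genes. The median difference of the 8 factors was 0.19 (day 5 against day 0), 0.09 (day 7 against day 0) and -0.10 (day 7 against day 5). Each of these medians was near 0 and depended on the treatment of the scanner values: the ranges over 6 others were -0.02 to 0.20, 0.02 to 0.23 and -0.10 to 0.06. Over the 17 probes, 5 were higher and 1 lower on day 5 than on day 0, beside 15.8% and 15.7% of all probes (31.5% in either direction). On day 7 against day 0, 5 were higher and 4 lower, beside 15.6% and 18.4% (34% in either direction). On day 7 against day 5, 2 were higher and 3 lower, beside 5.65% and 7.73% (13.4% in either direction). The 3 comparisons share arrays in pairs and are not independent of each other. The shares of genes given here are also the background for the counts of each gene list in this report.

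**Figure D1:**
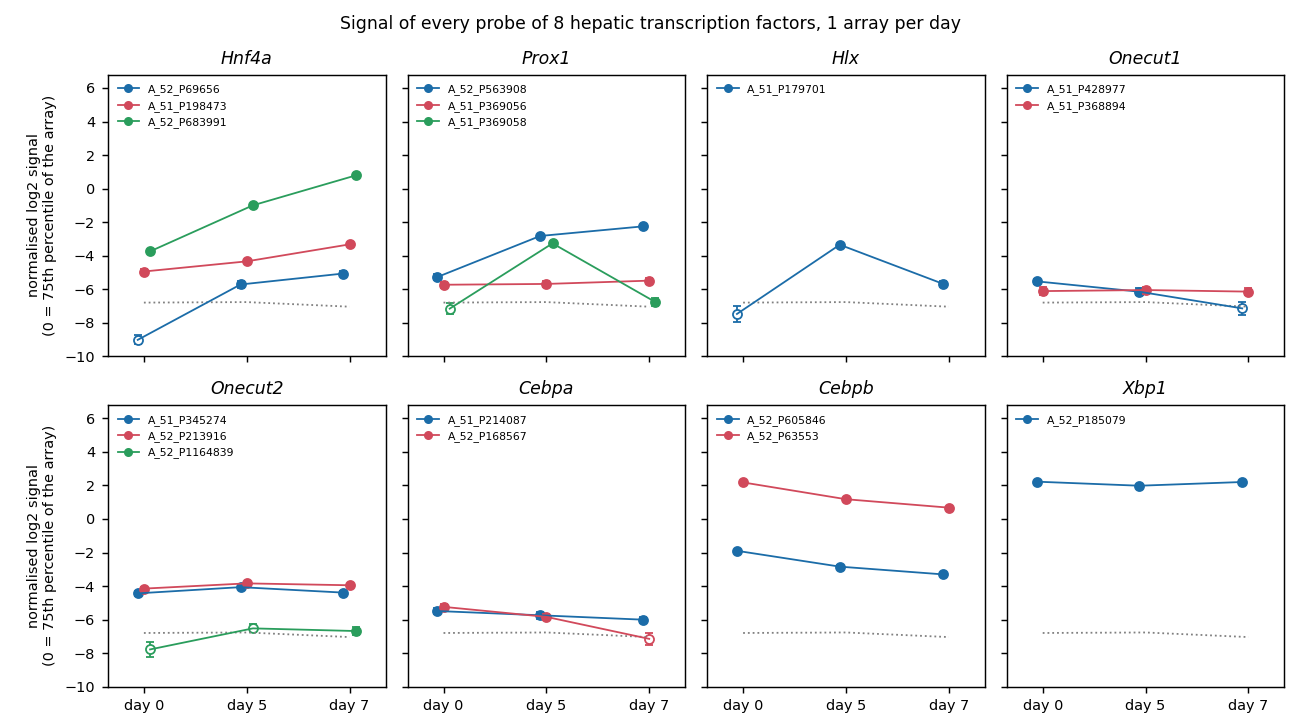
Normalised log2 signal (y axis, 0 is the array's 75th percentile) on days 0, 5 and 7 for all 17 probes, 1 panel per factor and 1 colour per probe. Filled points were well above background and open points were not, bars are the SD between spots at that brightness, and the dotted line is the lowest signal well above background; each Hnf4a probe is lowest on day 0 and highest on day 7, while the 3 Prox1 probes differ in course.

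**Figure D2:**
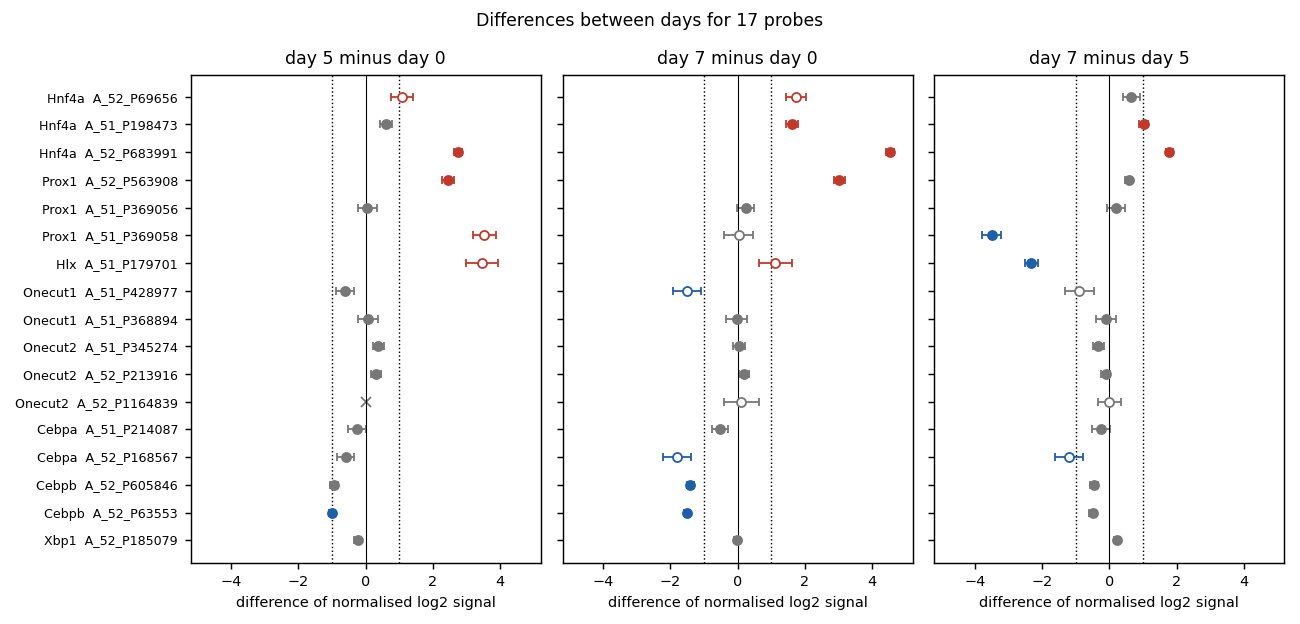
Difference of normalised log2 signal between 2 days (x axis) for each probe, with bars for the technical SD from spots and dotted lines at the 2-fold limit. Red points were called higher, blue lower and grey neither, open points are bounds and a cross marks a probe dim on both arrays; Hnf4a lies to the right in all 3 panels and Hlx turns from right to left between the first and the last panel.

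Hnf4a is the nuclear receptor that maintains the hepatocyte programme. Its 3 probes lie on the plus strand of chromosome 2 over 19832 bases (build mm9). The first, A_52_P69656 at chr2:163378302-163378361, reads coding sequence of the zinc-finger DNA-binding domain, which all known full-length isoforms share. Its sequence in the deposited array files is shown because the probe measures the DNA-binding exons themselves, with no capitals.
Hnf4a probe A_52_P69656: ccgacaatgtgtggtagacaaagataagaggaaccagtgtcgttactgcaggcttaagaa

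This probe was not well above background on day 0, at an intensity of 3.02 and a normalised log2 signal of -9.02. It was at -5.71 on day 5 and at -5.06 on day 7. Its dim value on day 0 does not date the transcript, since both other Hnf4a probes were well above background on that day. By this probe, day 5 was at least 2.11-fold above day 0, and day 7 was at least 3.32-fold above day 0. With a refitted normexp background correction, which adds an offset and compresses dim signals, these differences were 0.20 and 0.61 (log2) and were not called.

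The second Hnf4a probe, A_51_P198473 at chr2:163396065-163396124, was well above background on all arrays. Its normalised log2 signal was -4.94, -4.34 and -3.32 on days 0, 5 and 7. Day 7 was the highest, 3.07-fold above day 0 and 2.02-fold above day 5, while day 5 was 1.52-fold above day 0 and not called. With the refitted normexp correction the difference of day 7 from day 0 was 0.88 (log2).

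The third probe, A_52_P683991 at chr2:163398074-163398133, lies 1949 bases beyond the second and stood for the gene in the counts. Its intensities were 117, 1028 and 3543 in the order of days 0, 5 and 7, or -3.74, -0.996 and 0.79 as normalised log2 signal. The signal therefore passed the 75th percentile of the array on day 7. Day 5 was 6.70-fold above day 0, day 7 was 23.1-fold above day 0, and day 7 was 3.44-fold above day 5. These 3 calls held under all 6 other treatments of the scanner values, with ranges of 2.23 to 2.76, 3.95 to 4.57 and 1.73 to 1.94 (log2).

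The Hnf4a probes thus shared the order of the days and differed in size. On day 7 against day 0 all 3 were called higher, and on day 7 against day 5 only the second and the third passed 2-fold. Among the 14095 named genes well above background on all arrays, 18 had differences within 0.5 (log2) of those of the third Hnf4a probe over the 2 steps. The nearest were Lor (differences of 2.75 and 1.78), Eda (2.66 and 1.80) and Prss23 (2.89 and 1.82), each given as day 5 minus day 0 and then day 7 minus day 5. This likeness is over 3 arrays only.

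Which Hnf4a promoter was used was not tested, since no exon annotation of the probes' build was at hand. As background, the downstream promoter serves the adult liver and the upstream one the pancreas, with both active in fetal liver. RefSeq gives starts for both, 40298 bases apart on the assembly GRCm38.p6, and the 250 bases before each are shown because Onecut factors are known regulators of this gene. Capitals mark matches to the motifs ATCAAT (Onecut) and CCAAT (reverse ATTGG), searched on both strands with TGTTTAC (forkhead).
Hnf4a upstream start, chr2:163506607-163506856, plus strand: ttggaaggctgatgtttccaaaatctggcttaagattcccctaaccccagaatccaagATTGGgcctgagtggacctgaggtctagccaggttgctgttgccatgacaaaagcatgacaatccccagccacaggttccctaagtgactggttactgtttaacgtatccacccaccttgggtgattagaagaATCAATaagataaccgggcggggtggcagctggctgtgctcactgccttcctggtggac
Hnf4a downstream start, chr2:163546905-163547154, plus strand: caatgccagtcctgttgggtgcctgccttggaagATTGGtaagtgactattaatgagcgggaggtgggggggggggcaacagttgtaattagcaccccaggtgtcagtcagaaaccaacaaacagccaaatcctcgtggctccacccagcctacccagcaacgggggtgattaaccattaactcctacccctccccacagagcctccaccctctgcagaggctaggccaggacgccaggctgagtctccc

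The upstream window holds ATCAAT with its first base 59 bases before the start, and no other window of the 8 factors holds it. RefSeq windows were given for 7 of the 8 factors, 9 windows in all, with no entry for Onecut2. ATCAAT occurs in 6.72% of the 32851 windows of this length in the table, and 1 of the 9 windows of the factors had it. CCAAT occurs in 33.8% of all windows and in 3 of the 9, namely both of Hnf4a and that of Hlx. TGTTTAC occurs in 3.17% of all windows and in 0 of the 9. The motifs do not overlap in these windows, and a match is a run of letters, not a measured binding site. Both Hnf4a windows are poor in CpG, with observed over expected ratios of 0.183 and 0.193 beside a median of 0.374 over all windows, 29.8% of which lie under 0.2, and the other 7 windows of the factors lie between 0.523 (Xbp1) and 1.04 (Hlx).

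Genes that Hnf4a is known to regulate in liver were given by a list of 24, of which 22 were well above background on at least 1 array. On day 5 against day 0, 12 were called higher and 3 lower, with a median difference of 1.63 (log2). The count for day 7 against day 0 was 14 higher and 3 lower, with a median of 3.55 beside -0.19 over all genes. From day 5 to day 7, 11 were higher and 3 lower, with a median of 0.76. With the refitted normexp correction the 12 calls of day 5 became 7.

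The 4 members furthest above day 0 on day 7 were Apob, F10, Ttr and Fgb. Apob, the protein backbone of very-low-density lipoprotein, had normalised log2 signals of -5.60, -3.19 and 3.25 on days 0, 5 and 7. F10, clotting factor X, was not well above background on day 0 and stood at -0.77 on day 5 and 2.05 on day 7. Ttr, the thyroxine carrier transthyretin, was likewise dim on day 0 and stood at -4.37 and 0.94. Fgb, the fibrinogen beta chain, was at -6.46, -4.36 and 0.13. These 4 genes were higher on day 7 than on both other days. Other clotting genes of the list, F2, F7 and F9, differed from day 0 by -0.17, -0.42 and -0.30 (log2) on day 7 and were not called. Of the other fibrinogen chains, Fgg was 2.34-fold lower on day 7 than on day 0 and Fga was dim on all arrays. Apob and Ttr are also on the list of visceral endoderm markers.

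Apoa2 and Trf were among the members called lower on day 7 than on day 0. Apoa2, a protein of high-density lipoprotein, was at -4.16 on day 0 and dim on both later days, at least 7.36-fold lower on day 7. Trf, the iron carrier transferrin, was at -1.82, -4.36 and -4.33. Apoh, a plasma phospholipid-binding protein, and Cldn1, a tight junction protein, were dim on all arrays.

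The visceral and parietal endoderm list rose in sum and in median on days 5 and 7, but its members did not move together on day 5. Its summed signal was 60.5 times the array's 75th percentile on day 0, 145 times on day 5 and 336 times on day 7, or 38.4, 86.0 and 206 times without Sparc. Its median difference was 1.60 on day 5 and 4.43 on day 7 against day 0. On day 5 against day 0, 11 of its 18 members were higher and 3 were lower. The lower ones were Sox7, Rhox5 and Lama1, at -1.07, -3.08 and -3.65 (log2), while Afp, Cubn, Lrp2 and Thbd were not called. After Sparc, the brightest on day 5 were Sox17, Lamb1 and Gata6, at 4.83, 4.57 and 4.55. On day 7 against day 5, 14 of the 18 were higher and 2 lower. Sox17, an endoderm factor on the definitive endoderm list too, stood at -2.65, 4.83 and 4.20. Cubn, the cubilin receptor of absorptive endoderm, stood at -1.51, -1.31 and 3.49, and Dab2, its endocytic adaptor, at -1.46, 0.40 and 5.34. The part of these cell types in the Hnf4a result was not tested.

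Among 22 other hepatic factors, 21 of them compared, 12 were higher and 5 lower on day 5 than on day 0, and 12 were higher and 3 lower on day 7 than on day 0. Foxa2, the pioneer factor of endoderm that the study centres on, went from -4.22 to 4.29 and 3.98. Hhex, which is needed for the liver bud to form, went from -0.18 to 4.09 and 1.75 by its brighter probe. Foxa2 and Hhex had their highest signal on day 5, whereas Hnf4a had its highest on day 7 with each of its probes. Foxa1, the close relative of Foxa2, was dim on day 0 and stood at 0.41 and -0.34. Sox9, a factor of bile duct and other progenitors, stood at -5.72 on day 0 and -1.74 on day 5, and was 52.6-fold higher on day 7 than on day 0, with 2 of its 3 probes called. Nr1h4, the bile acid receptor, was at -4.69 on day 0 and dim on both later days. Nr5a2, a nuclear receptor of liver that ES cells also express, was the furthest below day 0 of the list, at 2.87, -2.54 and -4.79.

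**Figure D3:**
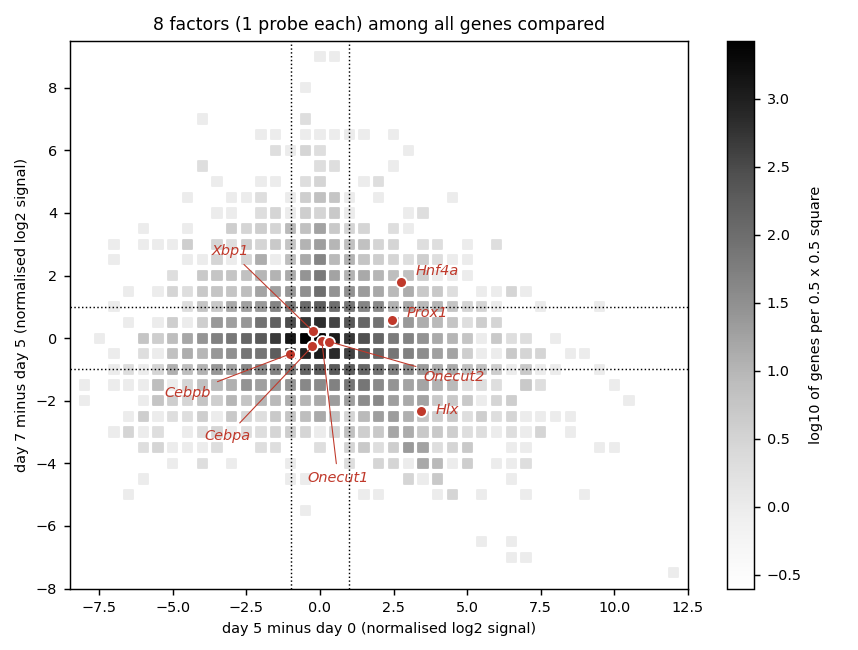
Difference of normalised log2 signal from day 0 to day 5 (x axis) and from day 5 to day 7 (y axis), with grey squares shaded by the log10 number of genes out of 21181 and red points for the 8 factors, 1 probe each. Dotted lines mark 2-fold; Hnf4a lies at 2.75 and 1.78, Hlx at 3.45 and -2.32, and the Onecut factors, Cebpa and Xbp1 lie inside the 2-fold square.

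Prox1 is a homeodomain factor that lets hepatoblasts leave the endoderm and that also specifies lymphatic endothelium and acts in neurons, retina, lens and heart. Its 3 probes lie on the minus strand of chromosome 1 (build mm9) and did not follow 1 course. A_51_P369058 maps to chr1:191977369-191984426, a span of 7058 bases for a probe of 60, so it crosses at least 1 intron and reads spliced RNA. Its sequence from the deposited array files is shown because this probe alone returned on day 7 to near the limit of detection, with no capitals.
Prox1 probe A_51_P369058: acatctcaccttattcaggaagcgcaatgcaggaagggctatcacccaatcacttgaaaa

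This probe was not well above background on day 0, at an intensity of 11.0. Its intensity was 213 on day 5 and 18.9 on day 7, or -3.26 and -6.76 as normalised log2 signal. It was thus high on day 5 alone. Day 5 was at least 11.6-fold above day 0, and day 7 was 11.3-fold below day 5. On day 7 it was well above background, at a level that sets no fold against day 0. With the refitted normexp correction the 2 differences were 0.64 and -0.84 (log2) and were not called.

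A_52_P563908, at chr1:191942646-191942705, lies furthest downstream in the direction of transcription and was designed on a cDNA clone from hypothalamus. Its normalised log2 signal was -5.27, -2.82 and -2.25 on days 0, 5 and 7. This probe was high on both later days. Day 5 was 5.45-fold and day 7 was 8.11-fold above day 0, while day 7 was 1.49-fold above day 5 and not called. Its calls against day 0 held under all 6 other treatments, with a lowest value of 1.47 on day 5 and 1.95 on day 7 (log2).

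A_51_P369056, at chr1:191947038-191947097, lies between the others, 4332 bases from the downstream probe. Its signal was -5.73, -5.68 and -5.49, with differences of 0.05, 0.24 and 0.20 (log2). Each lay within the technical SD of its difference (0.28, 0.26 and 0.26), and none was called.

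The Prox1 probes therefore disagreed, most of all on day 7. By the downstream probe Prox1 was called higher on day 7, by the median over its probes the difference was 0.24 and not called, and by the probe across the intron day 7 was called lower than day 5. Which of these courses the full-length mRNA followed cannot be told from 3 probes on 1 array a day. Within 0.5 (log2) of the downstream probe over both steps lay 93 of 14095 genes, the nearest being Chil1, Zxda and Inpp1 at distances of 0.05, 0.06 and 0.09.

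Genes tied to Prox1, a list of 10 cell cycle, lymphatic and bile acid genes, gave 3 higher and 1 lower on day 5, and 3 higher and 2 lower on day 7, against day 0, beside 16.5% of all genes higher on day 5 and 16.2% on day 7. The 3 higher on day 5 were 2 with median scaling and 1 with the refitted normexp correction. Pdpn, podoplanin of lymphatic vessels and of other epithelia, stood at -4.45, -2.31 and -0.50. Ccne1, the cyclin of entry into S phase, stood at 5.69, 3.35 and 3.19. Cdkn1c, a cell cycle inhibitor, stood at 1.52, 1.35 and 3.49. Ccnd1, a cyclin of the G1 phase, was 2.22-fold lower on day 7 than on day 0, and Ccne2, the second E-type cyclin, was 2.11-fold higher. Cyp7a1, the rate-limiting enzyme of bile acid synthesis, whose promoter Prox1 is known to repress, stood at -5.99, -6.14 and -5.95 and was called in no comparison.

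Cell types outside the endoderm that express Prox1 were followed by their markers. Of 10 lymphatic and blood endothelial markers, 9 were compared, with 4 higher and 3 lower on day 5 and 3 higher and 3 lower on day 7 against day 0, and their summed signal was 4.69, 3.25 and 3.34 times the 75th percentile on days 0, 5 and 7. Without Vwf the sums were 0.496, 1.51 and 2.67. Cdh5, the cadherin of endothelium, was dim on day 0, and its signal exceeded that array's bound at least 22.6-fold on day 5 and at least 11.3-fold on day 7. Kdr, a growth factor receptor of endothelium and its precursors, was 64.8-fold higher on day 7 than on day 0, and Pecam1, an adhesion protein of endothelium and ES cells, was 10.8-fold lower. Lyve1, a defining lymphatic marker, was dim on all arrays. Of 10 neuronal and retinal markers compared, 1 was higher and 4 lower on day 5, and 2 higher and 4 lower on day 7, with summed signals of 2.14, 0.935 and 1.15. Isl1, a factor of motor neurons that heart progenitors also use, was 5.58-fold higher on day 7 than on day 0, and Dcx, a microtubule protein of young neurons, at least 10.3-fold. The 4 lower on day 7 were Neurod1 (at least 25.3-fold), Elavl3 (13.2-fold), Pou4f1 (6.82-fold) and Tubb3 (2.40-fold), each by its representative probe. Ptf1a was dim on all arrays. Of 9 cardiac and lens markers, 1 was higher and 4 lower on day 5, and 4 higher and 1 lower on day 7, with summed signals of 7.67, 30.0 and 12.4. Without Myl7, an atrial myosin light chain, the sums were 2.05, 0.930 and 5.89. Their part in the Prox1 signals was not tested.

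Hlx is a homeodomain factor of the septum transversum and gut mesenchyme, where it is needed for the growth of the liver. Its 1 probe, A_51_P179701 at chr1:186554630-186554689 on the minus strand (build mm9), reads coding sequence, and it is shown because the course of this factor rests on it alone, with no capitals.
Hlx probe A_51_P179701: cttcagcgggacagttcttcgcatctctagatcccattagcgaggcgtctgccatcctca

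The probe was not well above background on day 0, at an intensity of 8.81. It reached 202 on day 5 and 40.4 on day 7, or -3.35 and -5.67 as normalised log2 signal. Hlx thus had its highest signal on day 5. Day 5 was at least 10.9-fold above day 0 and day 7 was 5.00-fold below day 5, and both calls held under all 6 other treatments, down to 1.54 and to -1.40 (log2). Day 7 was at least 2.18-fold above day 0, a difference of 0.14 (log2) and no call with the refitted normexp correction.

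The mesenchyme in which Hlx is known to act was followed by 12 markers, of which 4 were higher and 2 lower on day 5 and 9 were higher and 1 lower on day 7 against day 0. Their summed signal was 30.8, 53.2 and 93.1 times the 75th percentile on days 0, 5 and 7, so it was highest on day 7 and Hlx on day 5. Without Vim, the brightest of them, the sums were 10.9, 17.7 and 33.1. Tcf21, a bHLH factor of this mesenchyme that is also on the list tied to Hlx, was dim on day 0, at least 6.12-fold higher on day 5 and then 4.55-fold lower on day 7, so that its highest signal was on day 5 as for Hlx. Col1a1 and Col3a1, fibrillar collagen chains, were 24.5-fold and 89.2-fold higher on day 7 than on day 0. Postn, a matrix protein of mesenchyme, was 184-fold higher. Col3a1 and Postn were each called by 1 of the 2 probes detected on any array, and the remaining Col3a1 probe was dim on all arrays. The receptor Pdgfra, of mesenchyme and of early endoderm, was 71.0-fold higher on day 5 and 36.3-fold higher on day 7 than on day 0. Des, the muscle intermediate filament, was 4.58-fold lower. The part of these cells in the Hlx signal was not tested.

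Of 5 genes tied to Hlx function, 1 was higher and 1 lower on day 5, and 2 were higher and 0 lower on day 7 against day 0. Wt1, a zinc-finger factor of septum mesenchyme, was 2.43-fold higher on day 7, and Foxf1, a forkhead factor of gut mesenchyme, was at least 2.23-fold higher. Neither was called with the refitted normexp correction, at 0.54 and 0.41 (log2).

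Onecut1, also called HNF6, and Onecut2 are cut homeodomain factors that act upstream of Hnf4a in endoderm and that steer bile duct fate. Onecut1 was read by 2 probes 36973 bases apart on the plus strand of chromosome 9 (build mm9). A_51_P368894, at chr9:74737272-74737331, stood at -6.11, -6.05 and -6.14 on days 0, 5 and 7. The 3 days differed by at most 0.09 (log2), within the technical SD of 0.30 to 0.31 for a difference.

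The other Onecut1 probe, A_51_P428977 at chr9:74700239-74700298, was designed on a cDNA clone from spinal ganglion. It stood at -5.53 on day 0 and -6.15 on day 5, and it was not well above background on day 7. Day 7 was therefore at least 2.85-fold below day 0. This difference was -0.74 (log2) and not called with the refitted normexp correction, and the median over both probes was -0.77. The lowest signals well above background on the 3 arrays were -6.79, -6.76 and -7.04, so both probes were read near the limit of detection.

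Onecut2 was read by 3 probes on chromosome 18. A_51_P345274 stood at -4.43, -4.06 and -4.39, and A_52_P213916, which overlaps it by 40 bases, at -4.15, -3.84 and -3.95. The overlapping pair shared the order day 0, day 7, day 5, with day 5 higher than day 0 by 0.37 and 0.31 (log2). For A_52_P213916 the step from day 5 to day 7 was -0.11, within its technical SD of 0.13. Its range over 6 other treatments, -0.14 to 0.04, held both signs, so its order of days 5 and 7 is not settled. A_52_P1164839, 6574 bases away, was well above background on day 7 alone, at -6.68. None of the 3 probes was called in any comparison.

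Onecut1 and Onecut2 are close in sequence in the cut domain and homeodomain. The best ungapped alignment between the Onecut1 probe A_51_P368894 and the Onecut2 probe A_52_P213916 held 19 identical bases of 22, a stretch too short to fill either probe of 60 bases. Of 9 genes known to be regulated by Onecut factors, 4 were higher and 1 lower on day 5, and 3 were higher and 1 lower on day 7 against day 0. Foxa2 and Ttr, whose values stand above, were among those higher on day 7. Spp1, osteopontin of bile duct and of ES cell cultures, stood at 6.23, -0.04 and -2.30. Thbs4, a matrix thrombospondin, was high on day 5 alone, at -3.79, 0.01 and -3.89.

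Cells other than liver that use Onecut factors include pancreas. Of 8 pancreas and endocrine markers compared, 3 were higher and 0 lower on day 5, and 2 were higher and 1 lower on day 7 against day 0, with summed signals of 3.999, 11.8 and 3.47 times the 75th percentile. Without Chga, a granule protein, the sums were 0.377, 0.858 and 0.721. Cpa1, a digestive enzyme of acinar cells and their progenitors, was 27.6-fold higher on day 5 and 17.3-fold higher on day 7 than on day 0, and Nkx6-1, a factor of beta cells and of neural progenitors, was 2.22-fold higher on day 7. Neurog3, the endocrine factor, was well above background on all arrays and was not called, while the defining factors Pdx1 and Ptf1a were dim on all of them.

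Cebpa is the bZIP factor that raises gluconeogenic, urea cycle and plasma protein genes in the mature hepatocyte, and Cebpb is its relative that answers to inflammation and growth. The pair of probes with sequences given here read the leucine zipper region of each factor from the deposited array files, and a gapless alignment of the 2 probes held 30 identical bases of 55. That alignment was not set by position in the proteins, so it does not measure how alike the relatives are. The probes are shown because both read the zipper region, with no capitals.
Cebpa probe A_51_P214087: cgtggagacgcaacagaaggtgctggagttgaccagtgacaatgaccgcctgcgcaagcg
Cebpb probe A_52_P605846: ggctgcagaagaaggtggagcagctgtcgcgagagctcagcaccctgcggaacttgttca

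The Cebpa probe A_51_P214087, at chr7:35905361-35905420 on the plus strand (build mm9), stood at -5.49, -5.74 and -6.00 on days 0, 5 and 7. Day 7 was the lowest, by 0.52 (log2) below day 0, and no difference was called. The second Cebpa probe, A_52_P168567 at chr7:35906517-35906576, stood at -5.24 and -5.83 and was not well above background on day 7. It was at least 3.49-fold lower on day 7 than on day 0 and at least 2.30-fold lower than on day 5. The first of these was -0.78 (log2) and not called with the refitted normexp correction, and the second held in 3 of 6 other treatments. Both Cebpa probes had the order day 0, day 5, day 7 from high to low, and no Cebpa probe was higher on a later day. For A_51_P214087 the 2 steps, -0.255 and -0.261 (log2), each lay within the technical SD of the difference (0.258 and 0.264). The median over the 2 probes was -1.16 (log2) for day 7 against day 0, which counts as lower, whereas the probe that stands for Cebpa in the counts was not called.

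The Cebpb probe of the zipper region, at chr2:167515309-167515368 on the plus strand (build mm9), stood at -1.90, -2.84 and -3.30. The second Cebpb probe, A_52_P63553 at chr2:167515847-167515905, lies 478 bases further on and stood at 2.18, 1.18 and 0.68. Both probes had their highest signal in ES cells and their lowest on day 7. Day 7 was 2.65-fold below day 0 by the first and 2.84-fold by the second, and both calls held under all 6 other treatments. The steps from day 5 to day 7 were -0.46 and -0.50 and not called.

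The step of Cebpb from day 0 to day 5 lay at the 2-fold limit. It was -0.94 (log2) by the first probe, which was not called, and -1.002 by the second, which was. The call of the second probe held in 2 of 6 other treatments, with a range of -1.11 to -0.92, so the number of factors lower on day 5 is 1 or 0 by a margin of hundredths. Within 0.5 (log2) of Cebpb over both steps lay 1179 of 14095 genes, the nearest being Ncf4, Etaa1 and Grik4 at distances of 0.03, 0.03 and 0.04.

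Relatives and partners of the 8 factors were a list of 12, with 11 on the array. On day 5, 0 of these were higher and 3 lower than on day 0, and on day 7, 1 was higher and 1 lower. The shares of all genes were 16.5% higher and 16.2% lower on day 5, and 16.2% and 19.2% on day 7. Ddit3, the stress-induced C/EBP relative CHOP, stood at 0.05, -1.67 and -0.83. Cebpz, a CCAAT-box factor with a C/EBP name, stood at 3.70, 2.69 and 2.56 by its representative probe. On day 5, 3 of its 4 probes were lower, a call that held in 3 of 6 other treatments. Cebpd and Cebpg differed from day 0 by -0.44 and -0.78 (log2) on day 7 and were not called. Creb3l3, a liver-enriched bZIP factor of the endoplasmic reticulum that Hnf4a regulates, stood at -1.83, -3.89 and -0.31, and was the 1 member called higher on day 7.

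Genes that C/EBP factors regulate in liver numbered 14 compared. On day 5, 0 were higher and 3 lower than on day 0, with a median of -0.34 (log2), and on day 7, 1 was higher and 5 lower, with a median of -0.47. Over all genes, 16.5% were higher and 16.2% lower on day 5, and 16.2% were higher and 19.2% lower on day 7. Hp, the haemoglobin scavenger haptoglobin, was at -3.34 on day 0 and dim later, at least 13.0-fold lower on day 7. Cps1, which makes carbamoyl phosphate for the urea cycle, was at -3.80 on day 0 and dim later, at least 9.43-fold lower. Saa2 and Saa3, acute-phase apolipoproteins, were 6.14-fold and at least 4.04-fold lower. Arg1, the last enzyme of the urea cycle, was 5.24-fold higher on day 7 by the processed signal and was 0.86 (log2) with the refitted normexp correction. Of the list, 5 genes were dim on all arrays, among them Fga and Orm1.

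Fat cells and macrophages also express C/EBP factors. Of 5 adipocyte markers compared, 0 were higher and 1 lower on day 5, and 0 were called on day 7 against day 0, with summed signals of 0.413, 0.205 and 0.681 times the 75th percentile. Of 5 blood and macrophage markers compared, 1 was higher and 1 lower on day 5, and 3 were higher and 2 lower on day 7, with summed signals of 2.13, 0.723 and 0.367. Without Cd68, a lysosomal protein that was 10.7-fold lower on day 7, the sums were 0.136, 0.507 and 0.180. Gata1 was the brightest of the rest on day 5, at 6.36%, 45.1% and 1.95% of the 75th percentile on days 0, 5 and 7. It was 3.26-fold lower on day 7 than on day 0. Csf1r, a macrophage growth factor receptor, was 3.17-fold and Cd14, a receptor for bacterial lipid, 2.03-fold higher on day 7, and with the refitted normexp correction 0 of the 5 were higher. Ptprc and Spi1, which define blood cells and macrophages, were dim on all arrays, as was the fat hormone gene Lep.

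Xbp1 is the bZIP factor of the unfolded protein response, and its mRNA is cut by the kinase Ern1 to give the active form. Its 1 probe, A_52_P185079 at chr11:5424970-5425029 on the plus strand (build mm9), had intensities of 7311, 8108 and 9469 on days 0, 5 and 7, or 2.23, 1.98 and 2.21 as normalised log2 signal. All 3 arrays were above the 75th percentile, and the differences were -0.24, -0.02 and 0.22 (log2). No difference was called under any of 6 other treatments, which gave -0.35 to -0.14 for day 5 and -0.02 to 0.09 for day 7 against day 0. The probe gives the total of the mRNA, and the active form was not measured.

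Genes under Xbp1 control, 30 of 30 of them well above background, encode the folding, translocation and degradation machinery of the endoplasmic reticulum. On day 5, 0 were called higher and 0 lower than on day 0, and on day 7 against day 5 again 0 and 0. These counts stand beside 32.6% and 14.4% of all genes. Between day 0 and day 7, 3 were higher and 1 lower. Their median differences were 0.12, 0.13 and 0.04 (log2) for day 5 against day 0, day 7 against day 0 and day 7 against day 5.

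The 3 higher on day 7 were Arfgap3, a coat regulator of the secretory pathway, at 2.22-fold (called by 1 of its 2 probes detected, with the remaining probe dim on all arrays), Dnajc3, an inhibitor of the stress kinase PERK, at 2.15-fold (3 of 4 probes), and Edem1, a lectin of glycoprotein degradation, at 2.09-fold (1 of 3 probes). Derl3, a channel component of that degradation, was 2.11-fold lower. Hspa5, the main chaperone of the endoplasmic reticulum, stood at 5.71, 5.97 and 6.01 on days 0, 5 and 7. Dnajb9, a cochaperone and direct Xbp1 target, differed from day 0 on day 7 by 0.41 to 0.56 (log2) over its 3 probes. Ern1 stood at -2.34, -2.79 and -2.88 and was not called. The Xbp1-regulated genes had summed signals of 477, 496 and 490 times the 75th percentile.

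**Figure D4:**
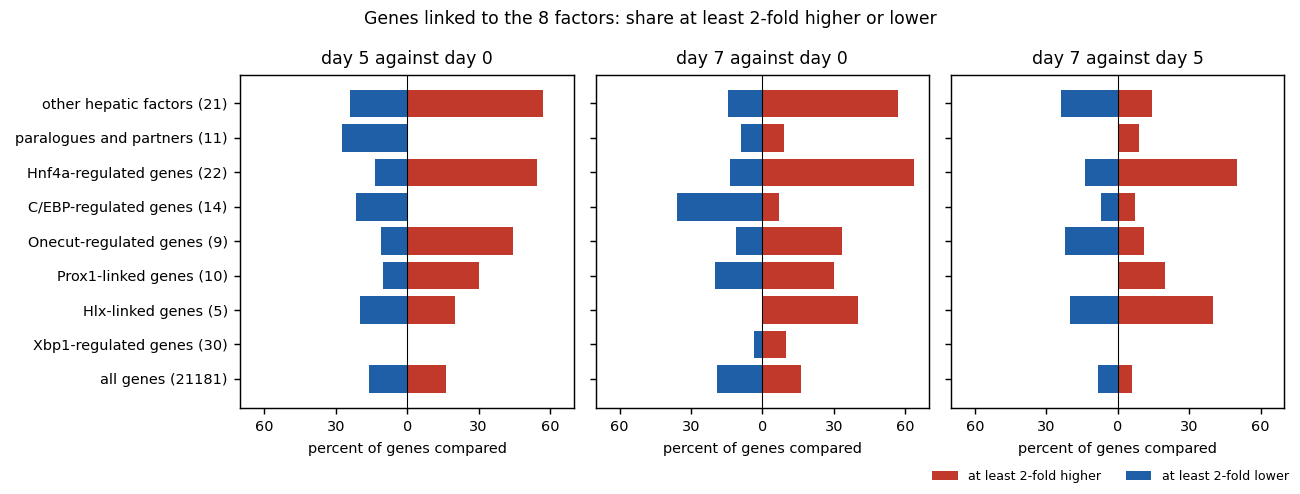
Percent of the genes compared that were at least 2-fold higher (red, to the right) or lower (blue, to the left) for 8 lists tied to the factors and for all genes, 1 panel per comparison, with the number of genes compared in brackets. Bars start at 0; the list tied to Hnf4a has a longer bar to the right than to the left in all 3 panels, and the list tied to Xbp1 has no bar on day 5 against day 0 or on day 7 against day 5.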

How the data were processed

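Per the file headers, the authors extracted the arrays with Agilent Feature Extraction 10.5.1.1, and probe positions are of build mm9. The deposited files hold linear fluorescence intensity, 1 row per spot. Its processed signal, from which the software had taken background, was analysed, and the mean signal and median local background served an alternative correction. A deposited value table gives log2 intensity in 41252 rows; its columns correlated at r = 0.9998 or above with the log2 processed signals and had a median of 7.17 each, so it is uncentred per gene, and the authors' way of equalising arrays is not given here.

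Values were converted to log2 and scaled to each array's 75th percentile over 43379 gene spots. Control spots and spots marked as outliers were left out (149, 104 and 131 on days 0, 5 and 7), and spots of a probe were averaged. Probes were named by accession (24844), symbol (6045) or older symbol (1810) in a RefSeq table of GRCm38.p6, and 8475 kept the name in the files. Exon and UTR annotation of mm9 was not used here. All 3 arrays lay on 1 slide.

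The members and the 19 gene lists were chosen with earlier results of these data known. Named genes are every probe of the members, up to 4 members of a list furthest above and 4 furthest below 0 on day 7 against day 0, Foxa2, Hhex, Afp, Ttr, Alb, Hspa5, Dnajb9 and Ern1, and the 3 genes nearest in course. Other genes given (Apoh, Cldn1, Cubn, Cyp7a1, Dab2, Ddit3, Thbs4, Cebpd, Cebpg, F2, F7, F9, Fgg, Tcf21, Neurog3, Sox7, Rhox5, Lama1, Lamb1, Lrp2, Gata6, the brightest marker of a list and dim markers) were picked after their values were seen. Some genes under this rule are not reported here. Alternatives were other scalings, a normexp background correction in limma 3.58.1 (R 4.3.3), marked spots kept, the authors' table, a 3-fold limit, a median over probes and a filter on dim probes. Python 3.11.15, numpy 2.4.6 and pandas 2.3.3 did the rest. Calling was tested on simulated data.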

Additional observations from a re-analysis of the deposited data

How the results depend on the processing

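Of the 20 differences called among the 17 probes of the 8 factors (12 higher, 8 lower), 19 were kept with arrays scaled by their median, 19 with the 75th percentile over probes well above background throughout, 18 with quantile normalisation, 20 with marked spots kept and 18 with the authors' deposited table. No called difference changed sign under these. With the refitted normexp correction 9 were kept (6 higher, 3 lower), and the genes called on day 7 against day 5 fell to 1924 from 3056; that correction adds 50 to each signal, which shrinks differences of dim probes. It was chosen after the data were seen, because the plain normexp fit gave a mean background of -1242 on day 0 against 4.50 without 7 spots below their local background. At a 3-fold limit the genes called were 3851, 4249 and 1556 in place of 6908, 7502 and 3056 on day 5 against day 0, day 7 against day 0 and day 7 against day 5, and the factors called on day 7 against day 0 were 2 in place of 4. Median scaling moved the share of higher among the calls of day 7 against day 5 from 41.5% to 51.3%. Dim signal limits Hlx, Onecut1, Cebpa and the first Hnf4a and Prox1 probes named, which lay near background on at least 1 array. No paired analysis was possible because each day had 1 array.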

Other observations

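Genes with probes within 50000 bases of a probe of the factors, on the positions of build mm9, were looked up after the data were seen. Ccdc117, whose probes lie 4282 and 5685 bases from that of Xbp1 on the other strand of chromosome 11, stood at 1.17, -0.24 and 0.21 on days 0, 5 and 7 by 1 probe and at 0.03, -1.68 and -1.21 by the other. It was 2.67-fold and 3.27-fold lower on day 5 than on day 0, while Xbp1 differed by -0.24 (log2). Ttpal, downstream of Hnf4a on the same strand, had 3 probes that disagreed: on day 7 against day 0 they differed by -0.74, 1.43 and 1.02 (log2). Tmem189, 46493 bases from Cebpb, differed by -0.11 on day 5 and 0.19 on day 7 from day 0. Neither of 2 clone transcripts near Onecut2 was well above background on any array.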
